A study of Mus musculus with 2 samples.

Results

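Promoter accessibility, footprints and nearby distal sites of the proteasome genes were read from DNase-seq of mouse gastrocnemius, the large muscle of the calf. Members were the protein-coding genes of GENCODE release M21 whose symbols begin with Psm, a letter from a to g and a digit, which gave 50 of 21851 genes. Of these, 49 encode proteasome subunits, chaperones or regulators, and the remaining one, Psmc3ip, shares the symbol pattern but encodes a meiotic recombination protein. DNase I cuts DNA that is not packed into nucleosomes, so that dense cleavage marks accessible sites. The tissue came from 2 male mice of the F1 hybrid strain B6CASTF1/J, a cross of C57BL/6J with CAST/EiJ, at 36 days of age, untreated as far as the labels say. Each mouse gave 1 library, named replicate 1 and replicate 2, and both belong to 1 group, so no condition was compared and no test between groups was possible.

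The proteasome degrades proteins that carry ubiquitin chains. Its core particle is a barrel of outer alpha rings, which gate the entrance, and inner beta rings, which hold the proteolytic sites. The regulatory particle on the end of the barrel binds ubiquitin, removes it and feeds the unfolded substrate inside through a ring of ATPases. In immune cells and under interferon, 3 beta subunits are exchanged for the immune subunits Psmb8, Psmb9 and Psmb10, and the PA28 activator replaces the regulatory particle on part of the barrels. In skeletal muscle the proteasome clears contractile proteins, and its genes are known to be induced in atrophy. When proteasome activity falls, the factor NFE2L1, also called NRF1 or TCF11, is known to bind antioxidant response elements in the promoters of subunit genes together with small MAF proteins.

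Almost all members had an accessible promoter. A promoter peak of the authors' shorter list lay within 500 bp of a start site in both libraries for 46 of 50 members (92%), against 54.2% of all protein-coding genes and 86.9% of genes with a CpG-rich promoter, defined by an observed-to-expected CpG ratio of at least 0.6 in 300 bases. All 14 constitutive core subunits, all 17 subunits of the regulatory particle and all 7 assembly chaperones were among them. The members without such a peak in both were Psma8, Psmb11, Psmb10 and Psme2b. With the longer lists the count was 47 (94%), against 59% of all genes. In height the members were not far from other accessible promoters: ranked within a library among genes with a promoter peak, and taking the lower of both percentiles, their median was the 55.0th percentile, against 46.2 over all genes with a peak in both libraries and 53.0 over those that were CpG-rich. No test against other genes was made.

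The sequences that carry the motif and footprint results are given here, each from a RefSeq promoter on GRCm38.p6 and read 5′ to 3′ on the strand of the gene. In the first 3, capitals mark a match to the antioxidant response element TGACNNNGC that lay under a footprint, a short stretch protected from cleavage, in both libraries. The genes encode the chymotrypsin-like subunit Psmb5 (chr14:54618023-54618145, minus strand), the caspase-like subunit Psmb6 (chr11:70525207-70525356, plus strand) and the assembly chaperone Psmd9 (chr5:123228040-123228189, plus strand).
Psmb5: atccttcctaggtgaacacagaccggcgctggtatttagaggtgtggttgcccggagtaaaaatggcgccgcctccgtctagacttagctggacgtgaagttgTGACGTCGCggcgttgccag
Psmb6: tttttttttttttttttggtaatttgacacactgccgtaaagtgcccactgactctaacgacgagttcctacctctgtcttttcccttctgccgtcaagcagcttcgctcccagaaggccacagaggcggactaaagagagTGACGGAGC
Psmd9: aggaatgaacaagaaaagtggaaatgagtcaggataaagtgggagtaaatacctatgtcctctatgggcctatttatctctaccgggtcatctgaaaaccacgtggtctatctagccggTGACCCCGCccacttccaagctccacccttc
The ETS motif CCGGAAG stood out by its share and is shown in 2 ATPase genes, in capitals together with GC boxes (GGGCGG) in Psmc6 (chr14:45329674-45329787, plus strand) and as its reverse complement in a second RefSeq promoter of Psmc2 (chr5:21786689-21786746, plus strand).
Psmc6: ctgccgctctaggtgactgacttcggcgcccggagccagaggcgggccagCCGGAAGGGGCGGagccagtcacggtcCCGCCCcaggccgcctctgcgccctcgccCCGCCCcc
Psmc2: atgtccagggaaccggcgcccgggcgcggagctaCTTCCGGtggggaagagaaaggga
The chaperone gene Psmd5 (chr2:34870963-34871112, minus strand) held the palindromic Kaiso-type element TCTCGCGAG at 2 places, in capitals with the base that completes the palindrome.
Psmd5: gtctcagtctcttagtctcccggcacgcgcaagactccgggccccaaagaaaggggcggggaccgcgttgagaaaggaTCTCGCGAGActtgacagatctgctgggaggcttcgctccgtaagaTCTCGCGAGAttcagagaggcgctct

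Peak values are the signal that the authors deposited for each peak, the height of its cleavage density, and a gene was given the value of its highest promoter peak. The smallest unit of these heights was 0.0123 in replicate 1 and 0.00657 in replicate 2, called a step below. The units differ by 1.88 times, and the libraries are therefore compared by percentile. The shorter lists held 50760 peaks in replicate 1 and 49230 in replicate 2, with median promoter values of 5.57 and 3.77, and the depth in reads is unknown. Nuclei came from the whole tissue, and a low value can mean access in fewer cells or less access per cell, which cannot be told apart. Of 10 muscle fibre markers 9 had a promoter peak in both libraries, the exception Tnnt3 having one in replicate 1 only. None of 10 leukocyte markers had a promoter peak in the shorter lists of both libraries. Their summed promoter value there was 0 in replicate 1 and 0.552 in replicate 2, from Lyz2 alone. In the longer lists Lyz2 had a promoter peak in both libraries. Markers of other cells of muscle were in part accessible in both libraries: 3 of 3 of fibro-adipogenic cells, with a median lower percentile of 26.7 against 22.5 for the muscle fibre markers, 2 of 4 of endothelium, and 0 of 2 of satellite cells, which had peaks in replicate 2 only.

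**Figure D1:**
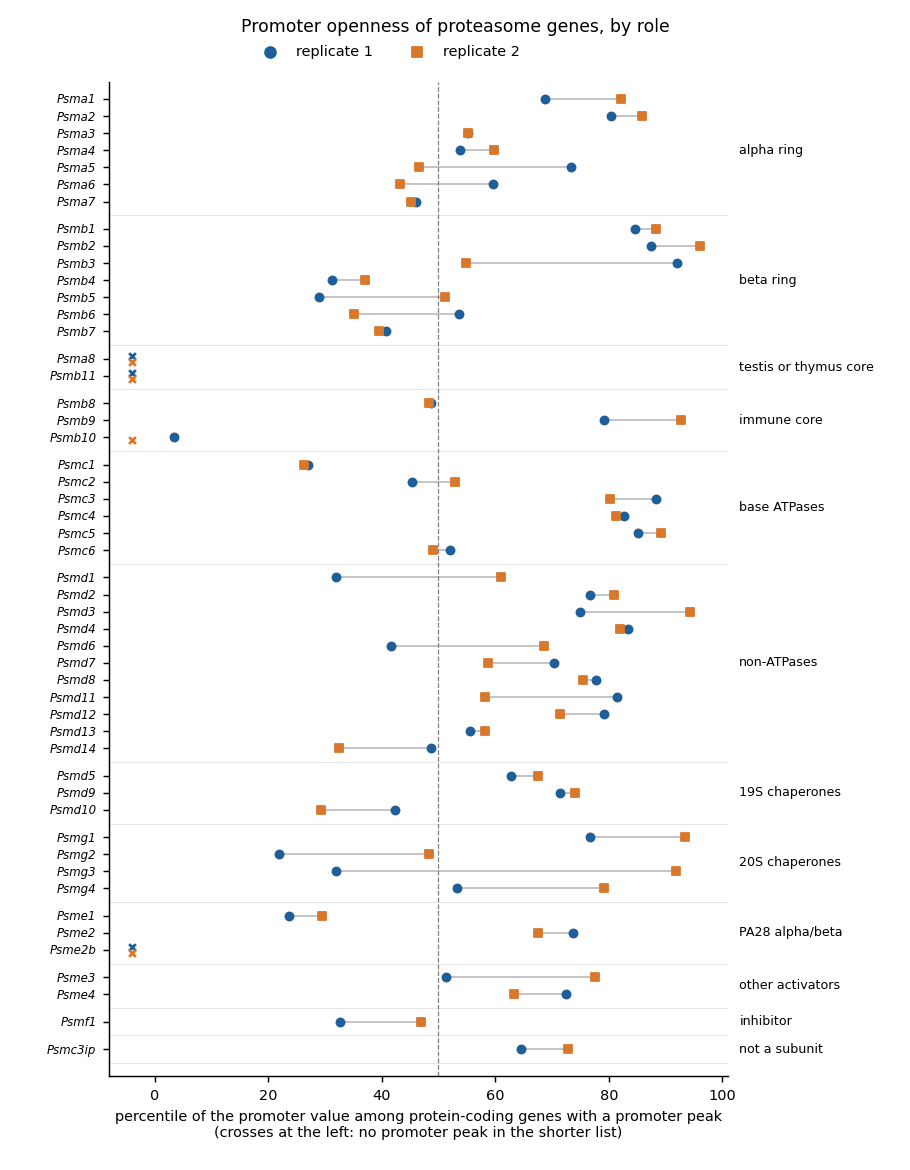
Percentile of the promoter value of each member within each library (x axis, in percent of the protein-coding genes with a promoter peak there), by role, with circles for replicate 1, squares for replicate 2 and crosses at the left where the shorter list held no promoter peak. Psmb2 lies at 87.5 and 96.0, Psmg3 at 32.0 and 91.8, and crosses in both libraries mark Psma8, Psmb11 and Psme2b.

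All 7 alpha ring genes were accessible in both libraries, at values of 5.05 to 10.26 in replicate 1 and 3.31 to 7.08 in replicate 2. Psma2, whose peak is shared with the start of the mitochondrial ribosomal gene Mrpl32, was the highest of them in both, at 10.26 and 7.08 (percentiles 80.5 and 85.9). Psma1 had 8.16 and 6.55 (percentiles 68.8 and 82.2). Psma3 stood at 6.19 and 4.13 and Psma4, which shares its peak with AY074887, at 6.03 and 4.48. Psma7, the alpha subunit that Psma8 replaces in testis, had 5.05 and 3.44 and shared its peak with Ss18l1. The libraries differed for Psma5, which had 8.95 (percentile 73.4) in replicate 1 and 3.55 (percentile 46.7) in replicate 2. Psma6 had 6.79 and 3.31, with its peaks not at the upstream start site at base 55384222 of chromosome 12 but at the one at base 55398775.

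The 7 constitutive beta ring genes held both extremes of the core. Psmb2, a structural beta subunit, had the highest lower percentile of all members, with 12.06 in replicate 1 and 9.46 in replicate 2 (percentiles 87.5 and 96.0) in a peak at chr4:126677521-126677700 that covers its start site. Psmb1, which shares its promoter peak with Tbp, the gene of the TATA-binding protein, had 11.28 and 7.49 (84.5 and 88.4). Psmb3 reached the highest value of any member in replicate 1, 13.60, but had 4.11 in replicate 2, at percentiles 92.1 and 54.8. The genes of the 3 proteolytic subunits were lower than these in both libraries. Psmb6, the caspase-like subunit, stood at 6.02 and 2.77, Psmb7, the trypsin-like subunit, at 4.44 and 3.06, and Psmb5, the chymotrypsin-like subunit and main target of proteasome inhibitor drugs, at 3.24 and 3.85. Psmb4, a structural subunit, was as low, at 3.46 and 2.89. The proteolytic subunits thus had percentiles of 29.0 to 53.7 in replicate 1 and 35.1 to 51.1 in replicate 2, while Psmb1 and Psmb2 were at 84.5 or higher in both.

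**Figure D2:**
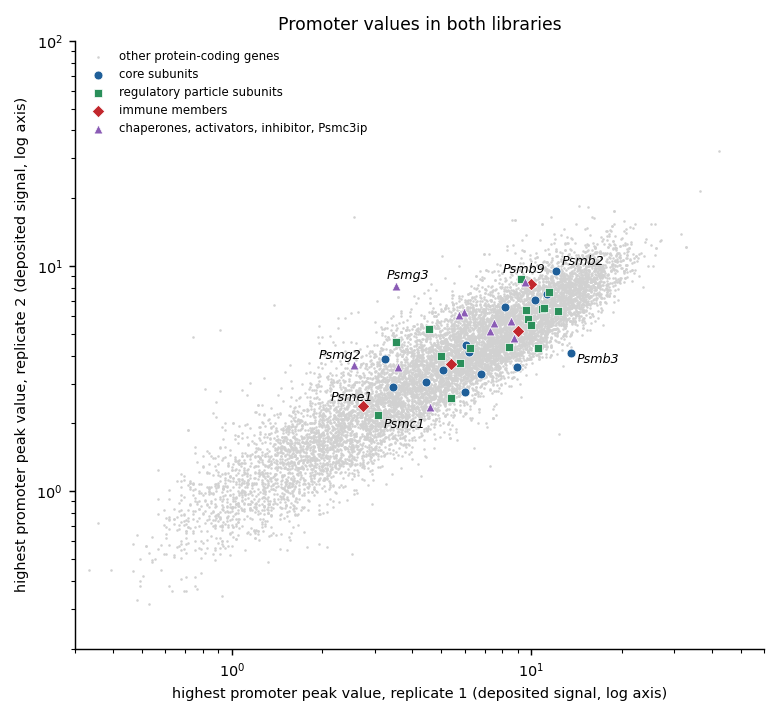
Highest promoter peak value in replicate 1 (x axis) against replicate 2 (y axis), both in the deposited signal on log axes, for protein-coding genes with a promoter peak in both libraries; grey points are other genes and coloured points are members by class. Members lie between 2.56 and 13.60 in replicate 1 and between 2.18 and 9.46 in replicate 2, with Psmg3 far above the cloud's axis and Psmb3 below it.

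The regulatory particle had a median value of 9.25 in replicate 1 and 5.22 in replicate 2 over its 17 genes, against 6.49 and 3.98 over the 14 constitutive core genes. The ranges overlapped widely, and the difference was not tested. Among the 6 ATPases, which unfold the substrate, 3 were high in both libraries. Psmc5 had 11.45 and 7.63 (percentiles 85.2 and 89.2) in a peak shared with Ftsj3, an rRNA methyltransferase gene. Psmc3 had 12.29 and 6.33, and Psmc4 had 10.86 and 6.45. The other ATPase genes were lower: Psmc6 had 5.79 and 3.71 and Psmc2, next to the chaperone gene Dnajc2, had 4.98 and 3.97. Psmc1 was the lowest of the regulatory particle, at 3.07 and 2.18 (percentiles 27.0 and 26.4).

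Of the 11 non-ATPase genes, 8 were above the 50th percentile in both libraries. The large scaffold subunit Psmd2 had 9.57 and 6.39, but its partner Psmd1 had 3.53 in replicate 1 (percentile 32.0) and 4.57 in replicate 2 (percentile 60.9). Psmd4, a ubiquitin receptor, stood at 11.03 and 6.51. Among the lid subunits, Psmd3 had 9.25 and 8.79, Psmd8 had 9.76 and 5.82, Psmd11 had 10.54 and 4.34 and Psmd12 had 9.998 and 5.47. Psmd14, the deubiquitinase that removes ubiquitin chains from the substrate, had 5.39 and 2.59, lower in both libraries than its lid partner Psmd7 at 8.40 and 4.38. Psmd6 had 4.54 and 5.22. Psmd13, which shares its promoter with the mitochondrial deacetylase gene Sirt3, had 6.23 and 4.34, and its highest peaks in the 2 libraries did not overlap. The peak at chr7:140882261-140882420 was highest in replicate 1 and the one at chr7:140881781-140882020 in replicate 2. Both places had a peak in both libraries, at 6.23 and 5.98 in replicate 1 and at 4.13 and 4.34 in replicate 2.

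The 7 assembly chaperones were accessible in both libraries, and those of the core particle differed between the libraries by a median of 26.1 percentile points, against 8.15 over all members and 7.03 over all genes with a peak in both. Psmg3 had 3.53 in replicate 1 (percentile 32.0, 286 steps) and 8.13 in replicate 2 (percentile 91.8, 1237 steps), the largest difference in percentile of any member, 59.8 points. Its peak is shared with Gm26938. Psmg2, which shares its peak with Cep76, had the lowest percentile of a member with a peak in both libraries, with 2.56 (percentile 22.0) and 3.65 (percentile 48.2). Psmg4 had 5.95 and 6.24, and Psmg1 had 9.55 and 8.53. Of the chaperones that assemble the ATPase ring, Psmd9 had 8.57 and 5.68, Psmd5 had 7.25 and 5.13, and Psmd10, known as the oncoprotein gankyrin and placed next to Atg4a on chromosome X, had 4.60 and 2.37. Over all members the libraries differed by more than 20 percentile points for 10 of 46 genes (21.7%), against 10.3% of all genes with a peak in both. These were Psma5, Psmb3, Psmb5, Psmd1, Psmd6, Psmd11, Psmg2, Psmg3, Psmg4 and Psme3, and each is 1 animal against 1, with no error on either value. Of these, Psma5, Psmb3 and Psmd11 were higher in replicate 1 by percentile and the others in replicate 2.

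The members of the immune form were divided. Psmb9, which replaces Psmb6, had 9.998 in replicate 1 and 8.35 in replicate 2 (percentiles 79.1 and 92.7), above Psmb6 in both. The peak at chr17:34187341-34187520 lies between Psmb9 and Tap1, the peptide transporter gene that starts on the other strand, and it counts for both genes. It was centred 333.5 and 303.5 bp inside the GENCODE start of Psmb9 and ahead of the start given by RefSeq. A second peak over the GENCODE start, chr17:34187661-34187880, was in the shorter list of replicate 1 only. Its value was 2.77, below the 6.02 of Psmb6 there. Psmb8, which replaces Psmb5 and lies on the same chromosome, had 5.40 and 3.65 (percentiles 48.7 and 48.3), higher than Psmb5 in replicate 1 and lower in replicate 2. Psmb10, which replaces Psmb7, had no promoter peak in replicate 2, and in replicate 1 a peak of 69 bp and value 0.962 (percentile 3.4), centred 377 bp inside the gene and with no footprint. Its longer lists gave 0.974 and 0.881. At q-values of at most 0.001 the cut rate within 500 bp of its start was listed for 65 bases in replicate 1 and 0 in replicate 2, and at the listing limit of 0.05 for 239 and 229 bases.

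**Figure D3:**
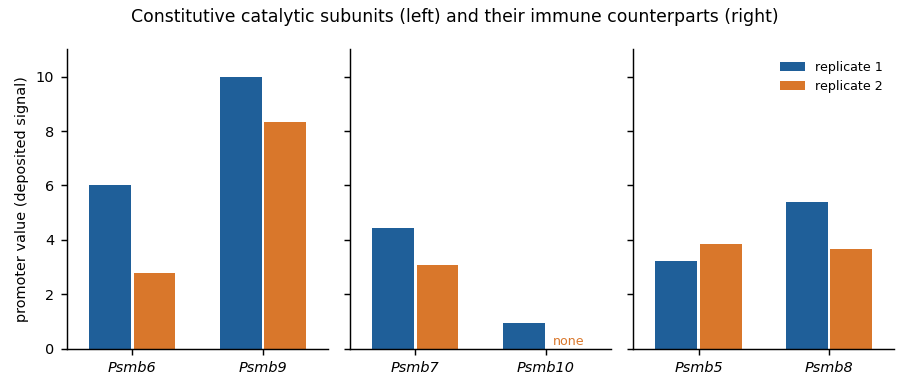
Promoter value (y axis, deposited signal) of the 3 constitutive proteolytic subunit genes, left in each panel, and the immune subunit gene that replaces each, right, in replicate 1 (blue) and replicate 2 (orange), 1 library per bar. The Psmb9 bars, from the peak that also counts for Tap1, exceed Psmb6 in both libraries. Psmb10 is at 0.962 in replicate 1 and has no peak in replicate 2. Psmb8 and Psmb5 change order between the libraries.

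The PA28 alpha gene Psme1 was among the lowest accessible members, at 2.74 and 2.39 (percentiles 23.6 and 29.5), while the PA28 beta gene Psme2, which encodes its partner in the ring, had 9.01 and 5.12. Psme2 shared its promoter region with Rnf31, a ubiquitin ligase gene that starts on the opposite strand, and had 2 peaks in each library. The peak over the start of Psme2, chr14:55590961-55591200, was higher in replicate 1, at 9.01 against 7.83 for the second, and in replicate 2 the second peak was higher, at 5.12 against 4.58. Psme2b, a relative of Psme2, had no promoter peak in either list of either library and no base listed in the tables of cut rates. None of the 6 immune members had a CpG-rich promoter, and 4 of 6 had a peak in both libraries, against 23.3% of all genes with a CpG-poor promoter. These 4 lay near the cutoff of 0.6, at ratios of 0.523 (Psmb8), 0.541 (Psme2), 0.576 (Psme1) and 0.5996 (Psmb9). Psmb10 and Psme2b were at 0.192 and 0.0904. The median over genes with a CpG-poor promoter was 0.238, so their 23.3% is not a matched background for the 4. The leukocyte markers were at or near 0 in the shorter lists. In the longer lists Lyz2 had 0.629 and 0.552, Cd68 had 1.29 and Itgam 0.555 in replicate 1, and Cd74 had 0.874 in replicate 2. Which cells the signal of the immune members came from was not tested.

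Both core subunits of other tissues lacked a promoter peak. Psma8, the testis alpha subunit, and Psmb11, the thymus beta subunit, had none in the shorter or the longer list of either library. Neither had a base at a q-value of 0.001 or less within 500 bp of its start. At the listing limit of 0.05, Psma8 had 14 bases in replicate 1 and 0 in replicate 2, and Psmb11 had 0 in both. Psmb11 starts at base 54625310 of chromosome 14, near the accessible Psmb5 at base 54618022 on the other strand.

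The other activators and the inhibitor were accessible in both libraries. Psme3, the nuclear PA28 gamma, had 5.73 and 6.05, and Psme4, the activator known as PA200, had 8.78 and 4.78. Psmf1, the inhibitor of the core known as PI31, had 3.60 and 3.58, with its peaks at the start site at base 151741310 of chromosome 2 and not at the one at base 151744186. Psmc3ip, which is no subunit, had 7.50 and 5.57, so that the count for the proteasome genes proper was 45 of 49 (91.8%).

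Promoter peaks lie near a start site by definition, and offsets are taken from the start nearest to the highest peak. That peak was centred just upstream in the members, at a median offset of -21.5 bp in replicate 1 and -9 bp in replicate 2. Over all genes with a peak in both libraries the medians were -37.5 and -25.5 bp. The members' highest peak was 200 bp wide in replicate 1 and 240 bp in replicate 2 at the median, against 200 and 260 bp over all genes. A second promoter peak was present for 37.0% of the accessible members in replicate 1 and 23.9% in replicate 2, against 36.8% and 33.5% of all accessible genes. Another protein-coding gene shared the promoter peak of 12 of 46 members (26.1%), against 17.9% of 11849 genes with a peak in both libraries. These were Psma2, Psma4, Psma7, Psmb1, Psmb9, Psmc2, Psmc5, Psmd10, Psmd13, Psmg2, Psmg3 and Psme2, and their values belong as much to the neighbour.

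Footprints lay in the promoter peaks of all 46 accessible members in both libraries, as in 97.7% of all genes with a peak in both. The footprints of the 2 libraries overlapped by at least 1 bp at 45 members, against 90.5% of all such genes. The exception was the ATPase gene Psmc1, with 4 footprints inside the promoter peaks of replicate 1 and 3 inside those of replicate 2, none at the same place. Members held 200 footprints in replicate 1 with a median width of 12 bp, of which 67% had a counterpart in replicate 2. They held 279 in replicate 2, median width 11 bp, of which 44.4% had one in replicate 1. Over the genome the authors listed 155037 footprints in replicate 1 and 234134 in replicate 2, and the step differs between the libraries as well, whose part in this was not tested. Within 100 bp of the start site lay 66.5% of the members' footprints in replicate 1 and 50.2% in replicate 2. Only footprints in promoter peaks were counted, which are themselves near a start site. For these shares and those with a counterpart, no value over all genes is given here. Psme2, with its pair of peaks, had the most: 12 in replicate 1, of which 8 overlapped one of replicate 2, and 16 in replicate 2, of which 6 overlapped one of replicate 1. Psmb8 and Psmb9 each had 3 footprints in replicate 1, all with a counterpart in replicate 2, and 4 in replicate 2, of which 2 at Psmb8 and 3 at Psmb9 had one in replicate 1.

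**Figure D4:**
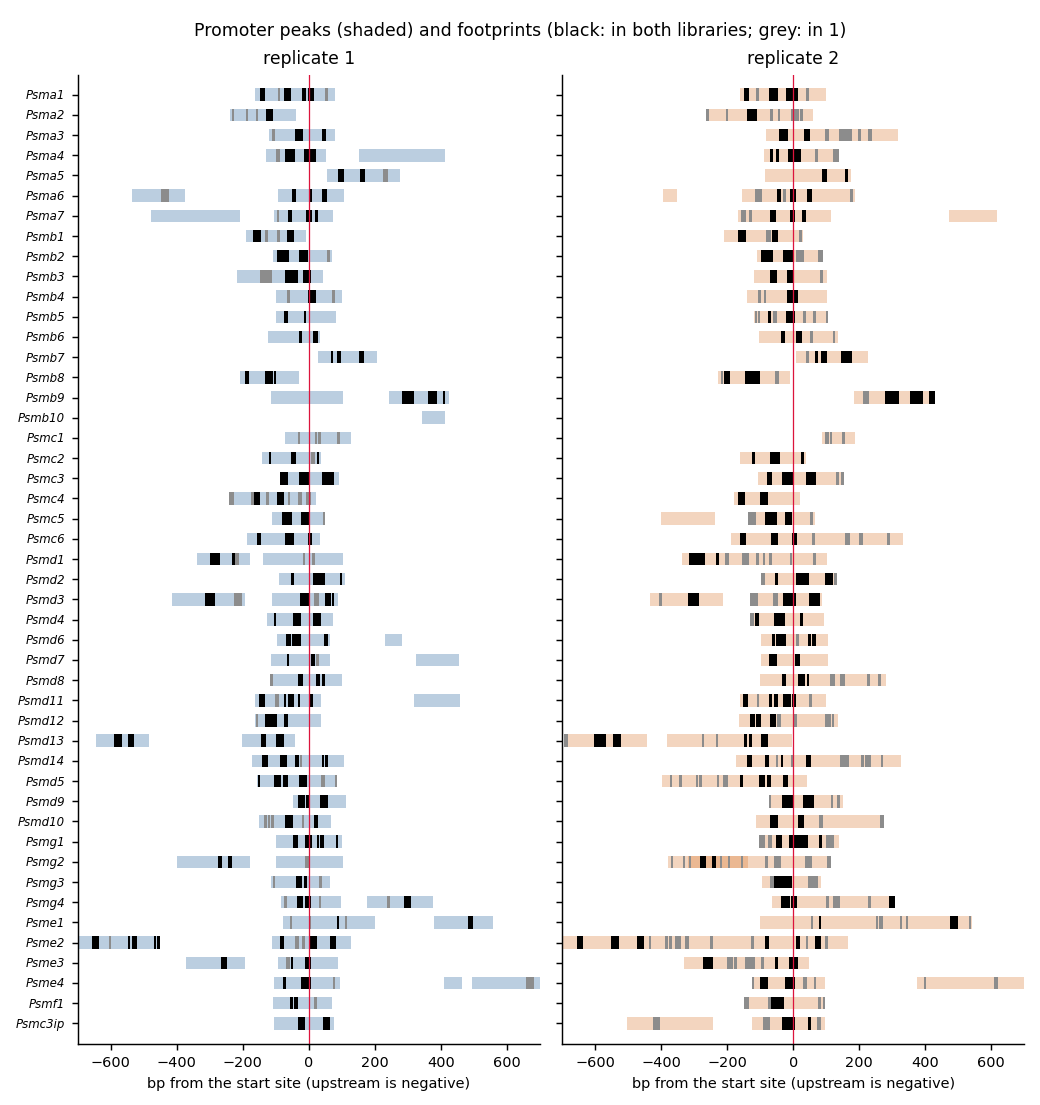
Promoter peaks (shading, darker where peaks of a library overlap) and footprints (ticks, black where a footprint of the other library overlaps and grey otherwise) of the members with a promoter peak, in bp from the start site, upstream being negative, with replicate 1 left and replicate 2 right. Black ticks gather around the start site in most members, the highest peak of Psmb9 in each library lies downstream of the GENCODE start, and Psmc1 has grey ticks only.

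For sequence motifs, 42 members matched by symbol in the RefSeq promoter table, which covers 250 bases before to 50 after the start of 16531 of the genes. A gene with several starts counted if any of its promoters held the letters on either strand, and offsets are counted from the RefSeq start. The ETS motif CCGGAAG was present in 15 of 42 members (35.7%), against 13.4% of all promoters. Among accessible genes it was in 38.5% of 39 members, against 20.9% of all and 23.3% of CpG-rich ones. It was found in 9 of the 14 regulatory particle genes in the table, Psmc1, Psmc2, Psmc6, Psmd2, Psmd4, Psmd6, Psmd11, Psmd12 and Psmd13, and in 1 of 11 constitutive core genes, Psma6. The chaperones Psmg1 and Psmg3, the activators Psme3 and Psme4 and Psmc3ip also held it, and none of the 6 immune members did. At 6 members a match lay under footprints of both libraries (15.4% of the 39 accessible members in the table, against 7.87% of accessible genes). These were Psma6, Psmc1, Psmc2, Psmc6, Psme3 and Psme4. Footprints were counted over a match in or out of a peak, and at Psmc1 the match lay outside the replicate 2 peaks.

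In Psmc6 the ETS match is directly followed by a GC box, as printed above, and 1 footprint covered both, at chr14:45329716-45329741 in replicate 1 and chr14:45329720-45329741 in replicate 2. The GC box GGGCGG, bound by SP1 and its relatives, was present in 23 members (54.8%), against 51% of all promoters. Among accessible genes it was in 59% of members, against 71.6% of all and 77.6% of CpG-rich ones. Footprints of both libraries overlapped a GC box at 18 members, 46.2% of the accessible ones against 44.3% of accessible genes. The CCAAT box, bound by NF-Y and spelled CCAAT, was found in 15 members (35.7%), against 42.1% of all promoters. It lay under footprints of both libraries at 5 members, Psma3, Psmb3, Psmd4, Psme3 and Psmc3ip, which is 12.8% of the accessible ones against 10.9% of accessible genes.

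The antioxidant response element TGACNNNGC was present in 6 members (14.3%), against 15% of all promoters. Among accessible genes it was in 15.4% of members, against 17.2% of all. A match lay under footprints of both libraries at 3 of the 6 members, Psmb5, Psmb6 and Psmd9. These are 7.69% of the accessible members in the table, against 4.48% of accessible genes. In Psmd9 the match at chr5:123228159-123228167 lay inside footprints of both libraries, chr5:123228157-123228177 and chr5:123228156-123228188, but these letters overlap a GC box there. In Psmb5 the match at chr14:54618034-54618042 lay inside the replicate 2 footprint chr14:54618018-54618044 and was covered in part by the replicate 1 footprint chr14:54618032-54618038. In Psmb6 the match at chr11:70525348-70525356 lay inside the replicate 2 footprint chr11:70525348-70525361, and only its end was covered in replicate 1. The matches of Psmc6, Psmd12 and Psme4 lay under no footprint of either library. Footprints name no factor, and which protein bound these places was not measured.

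Other motifs were found in few members. The Kaiso-type element TCTCGCGAG was in Psmd5 alone (2.38% of members, 1.09% of all promoters), and footprints of both libraries lay over both of its copies, which start at offsets -72 and -26; each copy reads as a match on both strands. The nuclear respiratory factor motif GCGCATGC, with overlapping matches on both strands in Psma2 and Psmg1, was in Psma2, Psmc5 and Psmg1 (7.14% against 4.1%). The YY1 motif AAGATGGCG was in Psmb6 and Psmc5 (4.76% against 2.25%). For these 3 motifs the shares were closer among accessible genes. The nuclear respiratory factor motif was in 7.69% of accessible members against 6.4% of accessible genes and 7.43% of accessible CpG-rich ones. The shares were 5.13% against 3.7% and 4.38% for YY1, and 2.56% against 1.79% and 2.15% for the Kaiso-type element. The cAMP response element TGACGTCA was in none of the members and in 2.64% of all promoters. The E-box CACGTG was in Psma4, Psmb10, Psmd9 and Psme3 (9.52% against 9.19%; among accessible genes 7.69% of members against 12.3%) and the muscle E-box CAGCTG in Psma4, Psmd4 and Psmd10 (7.14% against 17.7%). The TATA box letters TATAAA were in Psmb4, Psmb8, Psmd1 and Psmd6 (9.52% against 14.3%). Among accessible genes the order turned, with 10.3% of members against 7.88%. These matches start at offsets -78 and -76 in Psmb4, -237 in Psmb8, -122 in Psmd1 and -182 in Psmd6. Those of Psmb8 and Psmd6 lay outside the peaks of both libraries. A match lay under footprints of both libraries at 0 members, against 0.949% of accessible genes.

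The interferon response motif GAAANNGAA was in 7 members, Psmb3, Psmb4, Psmc2, Psmd4, Psmd9, Psmg4 and Psme1 (16.7%, against 9.57% of all promoters), and among the immune members 1 of 6 held it (16.7%), Psme1, under no footprint. It lay under footprints of both libraries at Psmb4. The STAT motif TTCNNNGAA was in Psmb8, Psmd2 and Psmg1 (7.14% against 9.03%), which is again 1 of 6 immune members. The table's promoter of Psmb8, chr17:34197945-34198244, lies downstream of the peak at chr17:34197581-34197760, so that its matches fell outside the accessible stretch, and no match says only that the letters are not in these 300 bases.

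**Figure D5:**
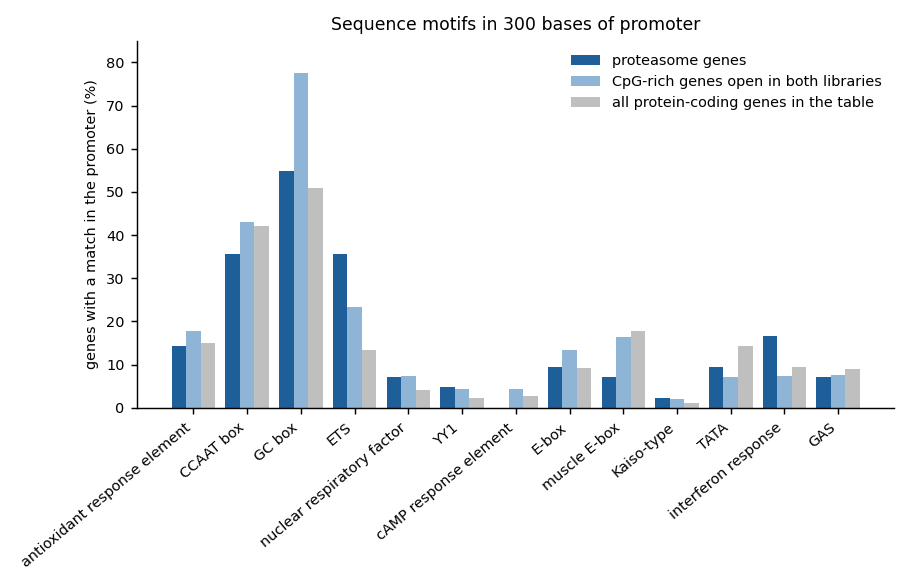
Share of genes (y axis, percent) whose 300 bases of RefSeq promoter hold each motif on either strand, for the 42 members in the table (dark blue), the 7549 CpG-rich genes with a promoter peak in both libraries (light blue) and all 16531 genes in the table (grey). The members' bar is the tallest of the 3 for ETS, at 35.7%, the interferon response motif, at 16.7%, and, from 2 genes and 1 gene, YY1 and the Kaiso-type element, and lies between the others for the GC box, at 54.8%.

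Distal regions were those over 1 kb from all annotated start sites and accessible in both libraries. They lay in the gene body or within 10 kb for 19 of 50 members (38%), near the share of other genes. That share was 32.2% over all protein-coding genes and 39.6% over CpG-rich ones. With the longer lists the count was 22 of 50 members, against 45.1% of all genes. Member genes had a median length of 11638 bp, against 17380 bp over all genes. The strongest lay inside the ATPase gene Psmc2, at chr5:21786641-21786840, with 6.40 in replicate 1 and 4.40 in replicate 2, above the values of its annotated promoter, 4.98 and 3.97. RefSeq places a second start of Psmc2 there, which the GENCODE set does not hold, and the ETS match printed above lay in it under footprints of both libraries. Next came a region upstream of the scaffold subunit gene Psmd1 (offset -5018 bp), at chr1:86059521-86059680 with 5.33 and 3.24, above the Psmd1 promoter in replicate 1 and below it in replicate 2. The other regions were between 0.974 and 3.18 in replicate 1 and between 0.710 and 3.23 in replicate 2.

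Several of these lay in or near other genes, and no region was tied to a target. Psma3 had 2 upstream regions outside protein-coding genes, at chr12:70968181-70968780 with 2.87 and 3.08 and at chr12:70969021-70969260 with 3.18 and 3.23. The region near Psmb10, at chr8:105930741-105930940 with 2.81 and 2.98, lay inside Pskh1 and was higher than the Psmb10 promoter. Psmd12 and Psmd13 had 3 regions each, of which the highest in replicate 1 were at 2.59 and 2.81, inside Pitpnc1, and at 1.96 and 1.32. Psmb7 had 2, at 1.45 and 0.933 and at 1.26 and 0.920, both upstream of its start and outside protein-coding genes (offsets -2043 and -8815 bp). Psmd7 had 2, at 2.49 and 2.39 and at 2.44 and 1.19. Psmg4 had 2, at 1.32 and 2.01 upstream and at 2.01 and 1.03 inside Slc22a23.

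A single region was listed for each of the remaining members with one. It was at 2.10 and 2.60 for Psma7, inside Ss18l1, at 1.23 and 1.95 for Psmb1 and at 1.59 and 1.51 for Psmb3. For the ATPase Psmc3 it was at 1.73 and 1.45, within Psmc3 and Slc39a13. Of the lid and scaffold genes, Psmd2 had one at 1.66 and 2.02 inside Ece2 and Gm49333, and Psmd3 one at 2.00 and 2.72. The chaperone Psmd5 had one at 2.05 and 0.933, and Psmd9 one at 2.70 and 1.89 within its own body. The activator Psme3 had one at 1.32 and 1.27, and the inhibitor Psmf1 one at 0.974 and 0.927, the lowest in replicate 1. Psme1, Psme2 and Psme2b had none.

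Of 36 listed genes that work with the proteasome, 35 (97.2%) had a promoter peak in both libraries, against the 54.2% of all and 86.9% of CpG-rich genes given above, with a median lower percentile of 55.1. The 4 highest by the lower percentile were Rad23b, which carries ubiquitylated proteins to the proteasome, at 19.85 and 13.18, Nfe2l2, a relative of NFE2L1, at 18.998 and 8.85, Zfand5, a proteasome-binding protein of muscle atrophy, at 15.72 and 8.81, and Mafk, a small MAF gene, at 13.07 and 8.45. By the value in replicate 1 alone, Vcp at 15.15, Ubb at 14.95 and Nfe2l1 itself at 14.82 were above Mafk. The exception was Tap2, the second subunit of the peptide transporter, with no promoter peak in either library, next to Tap1 at 9.998 and 8.35. With a window of 1000 bp, or with the start sites of all protein-coding transcripts, all 36 had one in both. All 7 listed genes of the NFE2L1 response had a peak in both libraries.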

How the data were processed

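DNase-seq of 1 group of 2 libraries was used. Per the deposited file listing, peaks were called per library on mm10 (GRCm38) and not pooled. The aligner, the callers, the scaling and the handling of CAST/EiJ alleles were not given in the sources used here. The authors deposited 2 peak lists per library, each peak with a signal value. They also deposited q-values of the cut rate, listed below 0.05, and footprints whose score column is a constant 0.01, of which only positions were used.

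Start sites were those of basic-set protein-coding transcripts of GENCODE release M21. Offsets are from the start site nearest to the highest peak. Distal regions were merged peaks of both shorter lists. The steps were tested on simulated data. The work used Python 3.11.15, pandas 2.3.3 and numpy 2.4.6. No test was made, with 1 group of 2 animals and no error on a single value. The members and lists were chosen with earlier results of these data known. Each member was named, with more detail for the 3 highest and 3 lowest by the lower percentile, those without a peak in both, immune and tissue-restricted members, those with distal regions and the 3 with the largest difference between libraries; of the partners, the 4 highest and each without a peak. Psmc3, Psma8, Psmb1, Psmb7, Psmb2, Psmd3, Psmd7 and Psmg2 were not among the promoter sequences used here. In the check of builds, all 45 promoter rows used equalled the genome. Alternatives were the longer lists, other windows and start sites, a value minimum, overlap between libraries, other limits of footprints and distal regions, the peak as motif window, and 1 library at a time.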

Additional observations from a re-analysis of the deposited data

How the results depend on the processing

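Under all 8 alternatives, 46 or 47 members had a promoter peak, 46 and 47 of them from 1 library alone. Of 45 alternatives over all results, 37 stayed near the reported value and 8 moved. The median lower percentile was 58.7 with the longer lists, and 59.6 to 62.1 from 1 library, where no lower value is taken. Distal regions within 50 kb reached 38 of 50 members, a larger share than the 58.2% of all genes at the same reach. A wider reach must raise both counts. The difference between the shares was not tested, and no share over CpG-rich genes is given at this reach. With the highest peak of replicate 1 as motif window, members with a cAMP response element were 1, with an E-box 2, with a muscle E-box 0 and with the letters TATAAA 1. The cause was not tested. From 1 library alone, 20 to 24 members had a distal region and 46 a footprint. For these counts and those with the peak as motif window, no share over all genes is given here. They therefore allow no comparison with other genes. No paired analysis was possible because there is only 1 group. With unknown depth, no peak means none at the authors' threshold, and peak heights carry no counting error.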
